A study of Homo sapiens with 4 samples.

Results

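The Hippo pathway and its transcriptional output were followed in the established human breast cancer cell line MDA-MB-231, which is triple-negative, through 10 genes listed by name: the coactivator genes YAP1 and WWTR1, the DNA-binding partner genes TEAD1, TEAD2, TEAD3 and TEAD4, and the target or regulator genes CCN1, CCN2, AMOTL2 and AJUBA. All 10 were found by Ensembl identifier among the 20263 genes of the count table. Cells had received YW-LF for 24 h (n = 2 libraries) or the solvent DMSO (n = 2), and messenger RNA was sequenced. The series title describes YW-LF as a derivative of ribociclib, a cyclin-dependent kinase inhibitor. Both groups are the same unmodified line grown with serum; the series design text also describes the control cells as untreated, whereas the sample labels name DMSO. No dose of YW-LF is stated, and the labels do not say whether replicates were separate cultures. The p-values weigh the difference between groups only against the spread between replicates, which the fits partly share across genes. That spread may be technical.

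In the Hippo pathway, the MST kinases, encoded by STK3 and STK4, activate the LATS kinases, which phosphorylate YAP (from YAP1) and TAZ (from WWTR1) and keep them in the cytoplasm. Unphosphorylated YAP and TAZ enter the nucleus and bind TEAD proteins, which lack strong activity of their own and recognise the sequence GGAATG; CCN1 and CCN2 are the targets most often used to read this activity. MDA-MB-231 cells are known to carry a truncating mutation of NF2, an upstream activator of LATS, and YAP and TAZ are known to be active in them.

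Promoter windows, from 250 bases before to 50 bases after a gene start, were available from RefSeq (GRCh38.p14) for 7 of the 10 genes, in 11 entries. The TEAD motif GGAATG was searched on both strands, so its complement CATTCC also counts. The CCN2 window held 3 matches, starting at positions -169, -104 and -95 relative to the gene start, a number that 0.128% of the 35116 human promoter windows reach or exceed. One of the AMOTL2 windows, one of the AJUBA windows and the YAP1 window held 1 match each, and the entries of WWTR1, TEAD2 and TEAD3 held 0. The AMOTL2 and AJUBA windows with a match lie at starts inside these genes. The windows at their outermost annotated starts (positions 134375479 and 22982642) held 0. Of all windows, 14.0% held at least 1. The 3 windows below belong to the target and regulator genes with a match and are printed 5′ to 3′ along the gene, with the matches in capitals.
CCN2 (chr6:131951323-131951622, minus strand): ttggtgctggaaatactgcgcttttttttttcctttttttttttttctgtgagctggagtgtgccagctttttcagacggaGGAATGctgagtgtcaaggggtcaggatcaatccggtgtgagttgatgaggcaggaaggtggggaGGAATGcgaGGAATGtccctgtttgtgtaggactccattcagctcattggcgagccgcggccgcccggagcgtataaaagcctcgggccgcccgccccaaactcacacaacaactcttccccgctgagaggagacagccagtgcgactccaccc
AMOTL2 (chr3:134374398-134374697, minus strand): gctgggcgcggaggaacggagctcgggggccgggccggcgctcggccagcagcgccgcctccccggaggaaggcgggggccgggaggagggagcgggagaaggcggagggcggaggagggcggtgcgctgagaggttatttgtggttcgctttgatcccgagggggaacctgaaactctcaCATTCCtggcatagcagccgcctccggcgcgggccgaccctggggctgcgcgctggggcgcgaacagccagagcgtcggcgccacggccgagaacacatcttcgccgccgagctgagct
AJUBA (chr14:22976793-22977092, minus strand): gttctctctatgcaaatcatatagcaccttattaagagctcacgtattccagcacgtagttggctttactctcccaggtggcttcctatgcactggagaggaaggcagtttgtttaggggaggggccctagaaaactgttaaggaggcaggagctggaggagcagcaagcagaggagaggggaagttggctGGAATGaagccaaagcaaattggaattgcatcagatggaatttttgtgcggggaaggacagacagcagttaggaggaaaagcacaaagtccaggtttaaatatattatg
The AP-1 motif TGANTCA (7.71% of all windows) and the CArG box bound by serum response factor (1.29%) had 0 matches in the 11 entries, each searched on both strands. A match describes the letters in the window and does not show binding.

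The libraries held 40218240 and 36886858 counts in YW-LF replicates 1 and 2, and 34774542 and 37754168 in DMSO replicates 1 and 2. The YW-LF libraries resembled each other less than the DMSO libraries did: Pearson's r of log2 CPM (read counts scaled so that libraries of unequal depth compare) across the 13816 genes tested was 0.907 between the YW-LF libraries and 0.976 between the DMSO libraries (genes are not independent replicates). With DMSO replicates 1 and 2, r was 0.922 and 0.911 for YW-LF replicate 1, and 0.865 and 0.859 for YW-LF replicate 2. By this measure YW-LF replicate 1 resembled both DMSO libraries slightly more than it resembled YW-LF replicate 2. The share of counts from mitochondrially encoded genes was 3.14% and 6.58% in YW-LF, against 8.68% and 21.7% in DMSO. Among markers of the line and of other cells, VIM, the mesenchymal filament gene, was at 2122 and 3158 CPM in YW-LF and 3321 and 4154 CPM in DMSO, and ESR1, the estrogen receptor gene, was below 1 CPM in each library. Of the 8 luminal epithelial markers, CDH1 was also below 1 CPM in each library, whereas the keratin genes KRT8 and KRT18 were present, KRT8 at 181 and 433 CPM in YW-LF and 275 and 296 CPM in DMSO. ERBB2 was at 69.2 and 30.2 CPM in YW-LF and 71.9 and 64.3 CPM in DMSO. Of the 7 tested, 3 (42.9%), GATA3 among them, were lower in both YW-LF libraries than in either DMSO library, against 27.8% of all genes tested. The list summed to 332 and 626 CPM in YW-LF and 585 and 697 CPM in DMSO. Of the 6 fibroblast markers, DCN and COL1A2 had 0 counts in each library, while COL1A1 was detected at 6.55 and 0.486 CPM in YW-LF and 6.97 and 7.92 CPM in DMSO; the list summed to 8.62 and 2.43 CPM in YW-LF and 9.91 and 9.68 CPM in DMSO. Of the immune markers, CD3E had 0 counts in each library and PTPRC and CD14 stayed below 1 CPM, while CD68 was at 230 and 231 CPM in YW-LF and 149 and 333 CPM in DMSO. The summed level of 6 mesenchymal markers was 3854 and 6074 CPM in YW-LF, against 7313 and 9433 CPM in DMSO. Of the 6, 5 (83.3%) lay lower in both YW-LF libraries than in either DMSO library, against 27.8% of all genes tested. Whether these markers bear on the values below was not tested. In bulk libraries, fewer cells expressing a gene and less RNA per cell cannot be told apart.

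TEAD4 and AJUBA were low in both YW-LF libraries, whereas the target genes CCN1, CCN2 and AMOTL2 differed widely between the YW-LF libraries, and YAP1, WWTR1 and TEAD1 were lower by 1.33- to 1.55-fold. In 7 of the 10 genes both YW-LF libraries were lower than either DMSO library, and in 0 were both higher, where 27.8% of all genes tested were lower and 28% higher in this sense. Taken alone, YW-LF replicate 1 was below the DMSO pair in 10 of the 10 genes, against 41.9% of all genes, and YW-LF replicate 2 was below it in 7 and above it in 2, against 45.6% and 43.3% of all genes. The 10 of 10 depended on the scaling. With upper quartile scaling, TEAD3 in YW-LF replicate 1 stood above the DMSO pair (53.0 CPM, against 52.2 and 51.6 CPM). With library size alone TEAD3 did so too, and YAP1 and WWTR1 in YW-LF replicate 1 lay between the DMSO libraries. The median log2 fold change of the 10 genes was -0.45, against 0.06 over all genes tested. With p-values adjusted over the whole table by the Benjamini-Hochberg method, the quasi-likelihood test of edgeR called 0 of the 10 (0% of all genes tested in either direction). At an unadjusted p under 0.05 that test gave 2 lower (TEAD4 and AJUBA) and 0 higher, against 9.01% of all genes lower and 11.5% higher. DESeq2 called the same 2 genes lower and 0 higher at an adjusted p under 0.05, where it called 4.26% of genes lower and 5.77% higher. With library size as the only scaling, 755 genes in all were lower and 1489 higher at an unadjusted p under 0.05 in edgeR, against 1245 and 1585 with the scaling used here.

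**Figure D1:**
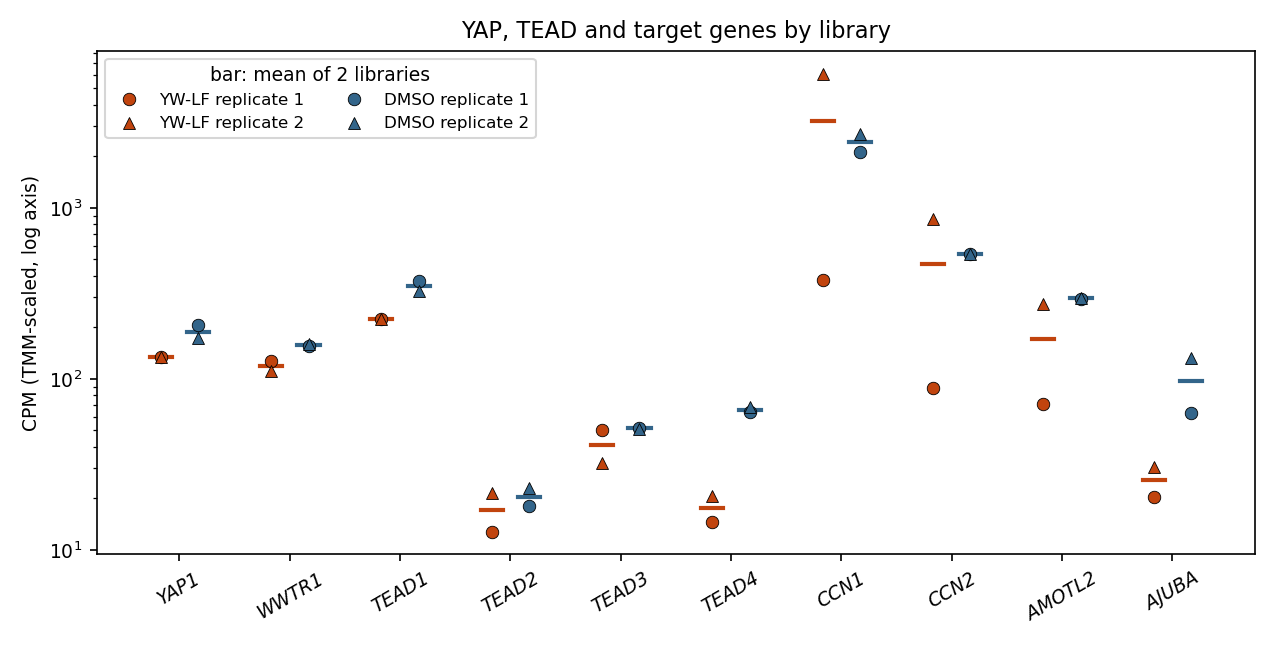
CPM of each gene in each library on a log axis, with YW-LF left of DMSO; circles are replicate 1, triangles replicate 2, and bars the mean of 2 libraries. TEAD4 and AJUBA sit lower in both YW-LF libraries, while the YW-LF libraries of CCN1 lie at 377 and 6082 CPM, on either side of the DMSO libraries.

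The coactivator genes were lower in YW-LF by less than their fitted error could resolve. YAP1 (ENSG00000137693; chromosome 11, 102110461 to 102233423 in GRCh38) was at 134 and 135 CPM in YW-LF, against 205 and 172 CPM in DMSO, with a log2 fold change of -0.49 (SE 0.36, 95% interval -1.36 to 0.38, edgeR adjusted p = 0.475). WWTR1, the TAZ gene (ENSG00000018408; chromosome 3, 149517235 to 149736714), was at 127 and 111 CPM in YW-LF, against 156 and 160 CPM in DMSO, with a log2 fold change of -0.41 (SE 0.35, 95% interval -1.25 to 0.44, edgeR adjusted p = 0.543). In both genes the groups did not overlap, but with library size as the only scaling they did, since YAP1 then stood at 167 and 113 CPM in YW-LF against 221 and 153 CPM in DMSO. Per kilobase of exon, YAP1 was the more abundant of the pair in each library. It made up 58.4% and 61.9% of their summed level per kilobase in YW-LF, and 63.8% and 59.1% in DMSO, so the balance between the coactivators overlapped between the groups.

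Among the TEAD genes, which encode closely related DNA-binding proteins, TEAD4 differed most. TEAD4 (ENSG00000197905; chromosome 12, 2959330 to 3040673) was at 14.5 and 20.7 CPM in YW-LF, against 63.7 and 68.2 CPM in DMSO. These values rest on 729 and 639 counts in YW-LF and 2386 and 2282 counts in DMSO. The treated libraries stood far under the controls, a gap larger than the spread within either group. The gene was 3.75-fold lower (log2 fold change -1.91, SE 0.38, 95% interval -2.81 to -1.0). Its adjusted p was 0.121 in edgeR and 0.0024 in DESeq2, and it lay in the lowest 3.03% of fold changes of all genes tested.

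TEAD1 (ENSG00000187079; chromosome 11, 12674591 to 12944483) was at 225 and 223 CPM in YW-LF, against 371 and 324 CPM in DMSO, a log2 fold change of -0.63 (SE 0.39, edgeR adjusted p = 0.394). Its groups did not overlap. TEAD3 (ENSG00000007866; chromosome 6, 35473597 to 35497076) stood at 49.9 and 32.1 CPM in YW-LF and 51.6 and 51.0 CPM in DMSO, with a log2 fold change of -0.32 (SE 0.38, edgeR adjusted p = 0.656); one YW-LF library was thus close to the DMSO level, and the groups overlapped with upper quartile scaling or library size alone. TEAD2 (ENSG00000074219; chromosome 19, 49340595 to 49362457) stood at 12.8 and 21.6 CPM in YW-LF and 18.0 and 22.9 CPM in DMSO, where the groups overlapped (log2 fold change -0.25, SE 0.43, edgeR adjusted p = 0.771).

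Set per kilobase of exon, so that genes can be compared with each other, the order of the TEAD genes differed between the groups. In YW-LF the mean levels were 21.8 CPM per kilobase for TEAD1, 13.5 for TEAD3, 7.74 for TEAD4 and 5.76 for TEAD2. TEAD4 and TEAD2 overlapped there, with TEAD4 at 6.38 and 9.10 CPM per kilobase and TEAD2 at 4.29 and 7.23. In DMSO the means were 33.8 CPM per kilobase for TEAD1, 29.03 for TEAD4, 16.8 for TEAD3 and 6.86 for TEAD2, and the values of neighbouring genes in this order did not overlap. TEAD4 supplied 13.0% and 18.7% of the summed TEAD level in YW-LF, against 32.2% and 34.9% in DMSO. This share is taken within a library and does not depend on scaling between libraries. TEAD1 supplied 44.7% in each YW-LF library, against 41.4% and 36.7% in DMSO. For any single such value the smallest two-sided p that an exact permutation of 2 against 2 libraries allows is 0.333. The lengths come from GENCODE 29 and assume that all annotated exons are used.

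**Figure D2:**
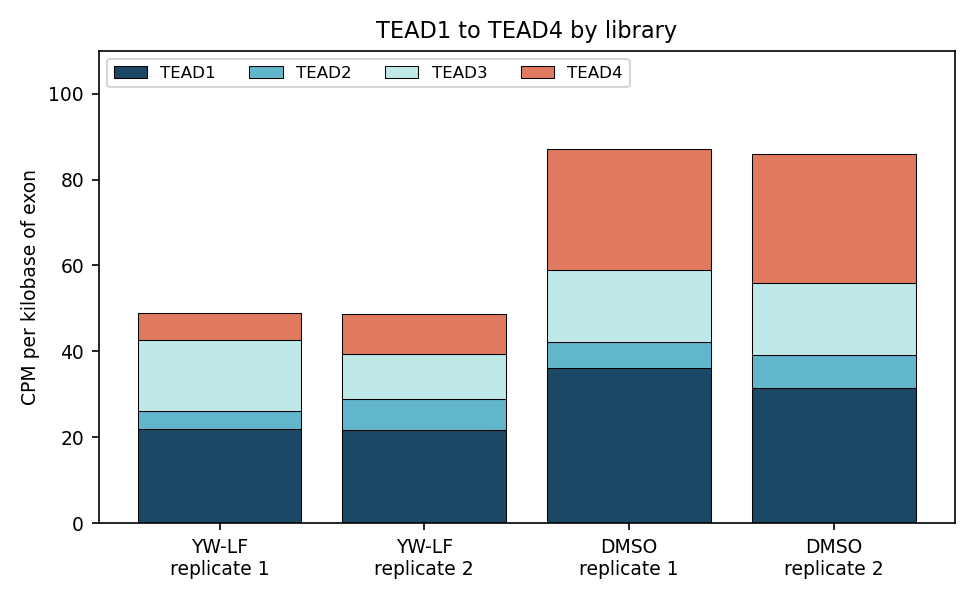
Stacked bars of the level of TEAD1 to TEAD4 in CPM per kilobase of exon, 1 bar per library, with YW-LF libraries left of DMSO libraries. The sums are 48.9 and 48.6 in YW-LF and 87.1 and 86.0 in DMSO, and the TEAD4 segment is the one that differs most.

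The secreted matricellular targets CCN1 and CCN2 split the YW-LF libraries. CCN1 (formerly CYR61; ENSG00000142871; chromosome 1, 85580761 to 85583962) was at 377 CPM (YW-LF replicate 1) and 6082 CPM (YW-LF replicate 2), with 2118 and 2713 CPM in DMSO. The YW-LF libraries lay on either side of the DMSO pair and differed 16.1-fold, far beyond counting error at 18959 and 187895 counts. That gap exceeds the gap between the YW-LF libraries in 99.8% of all genes tested. The fitted log2 fold change was 0.42 with an SE of 1.14 (95% interval -2.31 to 3.15, edgeR adjusted p = 0.860), so a difference between the groups could not be told from replicate error. With YW-LF replicate 2 as the only treated library the estimate was 1.33, and with YW-LF replicate 1 alone it was -2.69. The choice of library thus fixes the sign. In these fits the lone YW-LF library is assumed to vary as the DMSO pair does, so only their fold changes are given.

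CCN2 (formerly CTGF; ENSG00000118523; chromosome 6, 131948176 to 131951373), whose promoter window holds the 3 TEAD matches printed above, followed the same order. It was at 88.7 CPM (YW-LF replicate 1) and 855 CPM (YW-LF replicate 2), with 536 and 536 CPM in DMSO. The DMSO libraries were nearly equal while the YW-LF libraries differed 9.64-fold, a gap above that of 99.5% of genes tested. The log2 fold change was -0.18 (SE 0.93, 95% interval -2.41 to 2.04, edgeR adjusted p = 0.925). Fitted with YW-LF replicate 1 as the only treated library it came to -2.61, and with YW-LF replicate 2 alone to 0.67. CCN1 made up 80.2% and 87.1% of the summed CCN1 and CCN2 level per kilobase in YW-LF, against 79.0% and 82.8% in DMSO.

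AMOTL2, an angiomotin-like protein that binds YAP and is itself a YAP target (ENSG00000114019; chromosome 3, 134355874 to 134375479), was at 71.7 CPM (YW-LF replicate 1) and 272 CPM (YW-LF replicate 2), with 293 and 297 CPM in DMSO. YW-LF replicate 2 thus stood just under the DMSO level, and YW-LF replicate 1 well below it. The log2 fold change was -0.78 (SE 0.64, 95% interval -2.31 to 0.76, edgeR adjusted p = 0.522). It was -2.05 without YW-LF replicate 2, against -0.12 without YW-LF replicate 1.

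AJUBA, a LIM-domain protein that restrains LATS kinases (ENSG00000129474; chromosome 14, 22971174 to 22982642), was low in both treated libraries. It was at 20.4 and 30.5 CPM in YW-LF, against 63.1 and 132 CPM in DMSO. The groups did not overlap, and here the DMSO libraries were the less alike. The gene was 3.82-fold lower (log2 fold change -1.94, SE 0.49, 95% interval -3.10 to -0.77), with an adjusted p of 0.130 in edgeR and 0.0067 in DESeq2. TEAD4, AJUBA, TEAD1 and AMOTL2 had both YW-LF libraries below both DMSO libraries under each of the 4 scalings tried; YAP1, WWTR1 and TEAD3 did not under each of them.

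**Figure D3:**
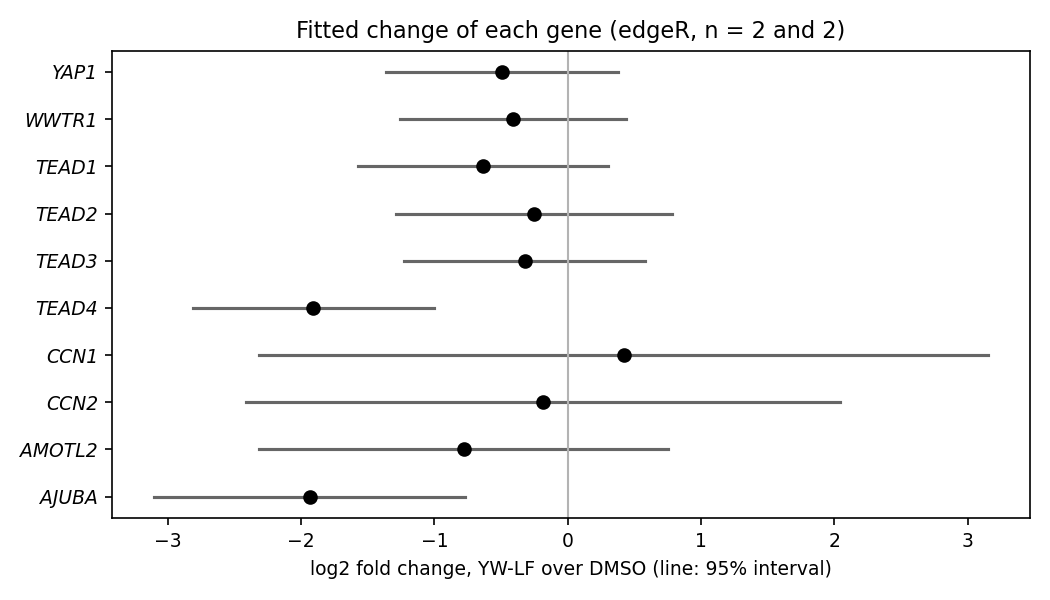
Fitted log2 fold change of YW-LF over DMSO for each gene (dot) with its 95% interval (line), from edgeR. The intervals of TEAD4 and AJUBA lie below 0 before adjustment for multiple tests, and those of CCN1 and CCN2 are the widest.

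Other targets of YAP and TEAD were read from a list of 19 genes, LATS2 and PTPN14 among them, which are also pathway components. All 19 were tested, and edgeR called 0 of them over all genes, with 4 lower and 1 higher at an unadjusted p under 0.05 (9.01% and 11.5% of all genes tested). In 10 genes (52.6%) the YW-LF pair was wholly lower than the DMSO pair and in 1 (5.26%) wholly higher, against 27.8% and 28% of all genes, with a median log2 fold change of -0.77. TGFB2, which encodes the growth factor TGF-beta 2, was at 17.1 and 16.9 CPM in YW-LF, against 149 and 186 CPM in DMSO. The YW-LF libraries were alike, and the gene was 9.84-fold lower (log2 fold change -3.30, SE 0.38; adjusted p = 0.117 in edgeR and 5.4e-10 in DESeq2). The 0.117 is the lowest adjusted p in the edgeR test and is shared by 25 genes. DESeq2 also called the transcription factor gene FOXF2 lower, at 1.71 and 0.291 CPM in YW-LF (86 and 9 counts), against 6.28 and 6.01 CPM in DMSO.

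GADD45A, a stress-induced gene, was at 51.2 and 93.0 CPM in YW-LF, against 26.1 and 30.3 CPM in DMSO (log2 fold change 1.35, SE 0.42, edgeR adjusted p = 0.164), and was the 1 gene of the list above DMSO in both libraries. CCDC80, a matrix protein gene, was at 33.9 and 52.4 CPM in YW-LF, against 92.5 and 114 CPM in DMSO (log2 fold change -1.25, SE 0.39, edgeR adjusted p = 0.165).

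The order of the YW-LF libraries seen in CCN1 and CCN2 also appeared across this list. YW-LF replicate 1 lay below both DMSO libraries in 17 of the 19 genes, or 89.5%, where 41.9% of all genes tested did so. YW-LF replicate 2 lay below both in 10 (52.6%) and above both in 8 (42.1%), where 45.6% and 43.3% of all genes did so. It exceeded YW-LF replicate 1 in 16 of the 19 genes, against 49.5% of all genes. The median log2 gap was 0.97, against -0.01 over all genes tested. Between DMSO replicates 2 and 1 the median log2 gap of the list was 0.21, against -0.003 over all genes tested. ANKRD1, a widely used YAP target, was at 116 and 533 CPM in YW-LF replicates 1 and 2, with 764 and 650 CPM in DMSO. F3, the tissue factor gene, was at 46.2 and 294 CPM in YW-LF replicates 1 and 2, with 267 and 312 CPM in DMSO. AXL, a receptor tyrosine kinase gene, was at 535 and 1270.5 CPM in YW-LF replicates 1 and 2, with 1536 and 1785 CPM in DMSO. FOXF2, ANKRD1, F3 and AXL were chosen after their values were seen.

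**Figure D4:**
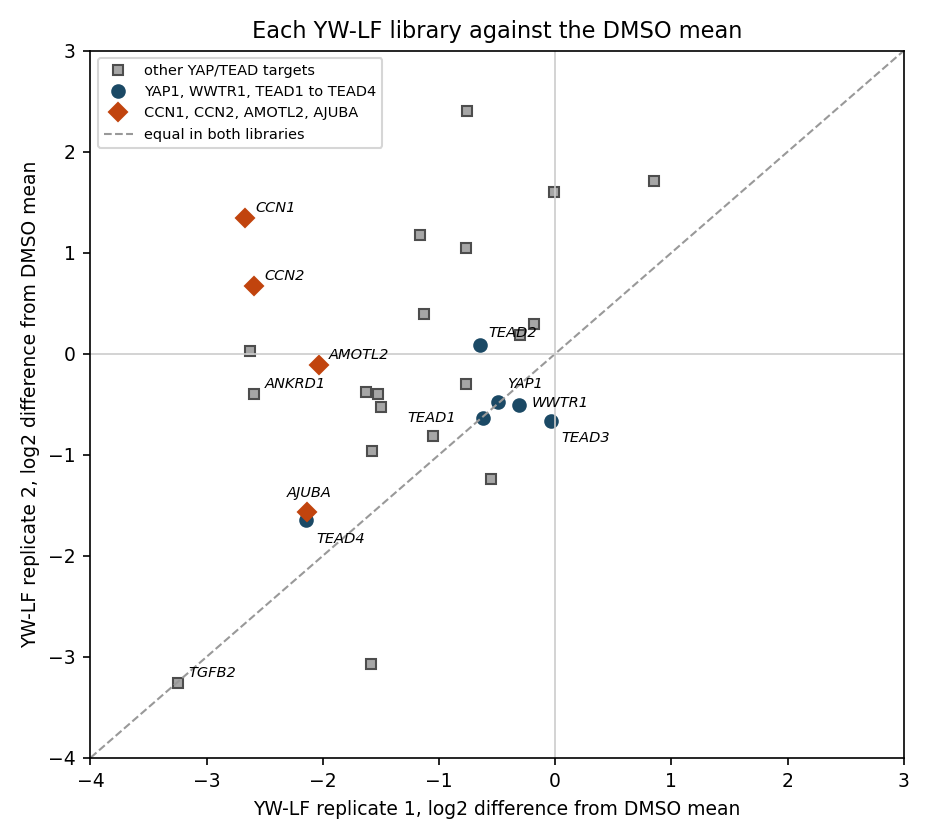
Log2 difference of each gene from the DMSO mean (CPM with a pseudocount of 0.5) in YW-LF replicate 1 (x axis) and YW-LF replicate 2 (y axis); the dashed line marks equal values. CCN1 (-2.67 and 1.34) and CCN2 (-2.59 and 0.67) lie far above the line. ANKRD1 (-2.59 and -0.40) lies less far above it. Of the 19 other targets, 16 lie above the line, with a median gap of 0.97 over the list. YAP1, WWTR1, TEAD1 and TGFB2 lie near the line, and TEAD4 (-2.15 and -1.65) a little above it.

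The kinase core and its upstream activators included genes that were higher and genes that were lower. Of 19 genes, all tested, the YW-LF pair was wholly higher than the DMSO pair in 3 (15.8%) and wholly lower in 7 (36.8%), against 28% and 27.8% of all genes, with a median log2 fold change of -0.05. Among them edgeR called 0, with 1 higher and 2 lower at an unadjusted p under 0.05 (11.5% and 9.01% of all genes). WWC1, which encodes the LATS activator KIBRA, was at 13.4 and 21.8 CPM in YW-LF, against 57.2 and 64.2 CPM in DMSO (3.44-fold lower; adjusted p = 0.121 in edgeR and 0.0073 in DESeq2). Its relative WWC3 was at 67.0 and 41.6 CPM in YW-LF, against 169 and 203 CPM in DMSO (3.43-fold lower; adjusted p = 0.121 in edgeR and 0.0051 in DESeq2). MAP4K5, a kinase of a family that can phosphorylate LATS, was at 189 and 388 CPM in YW-LF, against 126 and 132 CPM in DMSO (log2 fold change 1.16, SE 0.47, edgeR adjusted p = 0.238).

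LATS2, both a LATS kinase gene and a YAP target, was at 55.8 and 171 CPM in YW-LF replicates 1 and 2, with 48.8 and 64.8 CPM in DMSO, and so stood above both DMSO libraries in 1 of the 2 YW-LF libraries. NF2, which encodes merlin, was at 4.64 and 37.4 CPM in YW-LF replicates 1 and 2, with 9.88 and 10.4 CPM in DMSO. Like CCN1, its YW-LF libraries lay on either side of the DMSO pair, and they differed 8.07-fold. LATS2 and NF2 were chosen after their values were seen, and neither passed in edgeR (adjusted p = 0.356 and 0.524).

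Inhibitors of YAP and relatives of AJUBA and AMOTL2 made up a list of 14 genes, of which 13 were tested; VGLL1 had 0 counts in each library. The YW-LF pair was wholly lower than the DMSO pair in 7 (53.8%) and wholly higher in 1 (7.69%), against 27.8% and 28% of all genes, with a median log2 fold change of -0.37. Here edgeR called 0, with 3 lower and 0 higher at an unadjusted p under 0.05 (9.01% and 11.5% of all genes). The protocadherin gene FAT1 was at 210 and 207 CPM in YW-LF, against 664 and 596 CPM in DMSO (3.02-fold lower; adjusted p = 0.136 in edgeR and 0.0075 in DESeq2). FAT4, of the same family, was at 29.9 and 12.4 CPM in YW-LF, against 67.1 and 62.5 CPM in DMSO (3.06-fold lower; adjusted p = 0.161 in edgeR and 0.033 in DESeq2). WTIP, a LIM-domain relative of AJUBA, was at 8.02 and 3.63 CPM in YW-LF, against 17.7 and 19.9 CPM in DMSO (3.22-fold lower; adjusted p = 0.163 in edgeR and 0.034 in DESeq2).

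Of the other CCN family genes, 1 of 4 passed the filter on low counts. CCN3 was at 48.1 and 25.1 CPM in YW-LF and 39.4 and 51.6 CPM in DMSO, where the groups overlapped (log2 fold change -0.31, SE 0.44, edgeR adjusted p = 0.715). CCN4, CCN5 and CCN6 were below 1 CPM in each library.

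CCN1 and CCN2 also respond to serum response factor (SRF) and its actin-regulated cofactors, and 13 genes of that system were read beside them, of which 12 were tested. In 5 (41.7%) the YW-LF pair was wholly lower than the DMSO pair and in 1 (8.33%) wholly higher, against 27.8% and 28% of all genes, with a median log2 fold change of -0.41. In this list edgeR called 0, with 4 lower and 0 higher at an unadjusted p under 0.05 (9.01% and 11.5% of all genes). MRTFB, a cofactor gene, was at 8.18 and 5.53 CPM in YW-LF, against 24.0 and 39.4 CPM in DMSO (4.61-fold lower; adjusted p = 0.121 in edgeR and 0.0012 in DESeq2). MYL9, a myosin light chain gene, was at 25.5 and 26.1 CPM in YW-LF, against 54.6 and 79.4 CPM in DMSO (2.60-fold lower; adjusted p = 0.139 in edgeR and 0.043 in DESeq2). VCL, the vinculin gene, was at 145 and 216 CPM in YW-LF, against 348 and 589 CPM in DMSO (2.60-fold lower; adjusted p = 0.194 in edgeR and 0.056 in DESeq2). YW-LF replicate 2 exceeded YW-LF replicate 1 in 10 of the 12 genes (83.3%), in 5 of the 6 mesenchymal markers (83.3%) and in 49.5% of all genes tested. An order of this kind was also present between the DMSO libraries. In the 12 genes the median log2 gap of replicate 2 over replicate 1 was 0.36 in YW-LF and 0.36 in DMSO. Over all genes tested it was -0.01 in YW-LF and -0.003 in DMSO. In the 6 mesenchymal markers it was 0.91 in YW-LF and 0.30 in DMSO. Among these markers, CD44 was nearly equal in YW-LF replicates 1 and 2 (400.2 and 400.4 CPM), and EGFR went the other way (392 and 129 CPM). AXL is both a marker and 1 of the 19 other targets.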

How the data were processed

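Messenger RNA of 4 MDA-MB-231 libraries (2 YW-LF, 2 DMSO; groups from the sample titles) was analysed from the whole-number read counts per gene that the authors deposited, without normalization as the values show. Aligner, counting program and annotation: not given in the sources used here. All 20263 identifiers are human Ensembl genes, although GRCm38 and mm10, which are mouse builds, appear in the submitters' processing notes. A symbol was found for 20148 of them; 115 without one, with 0.102% of counts, were tested too. Positions and exon lengths come from GENCODE 29 (GRCh38), matched by identifier. A second deposited count table held identical DMSO values (40526 of 40526), and 2 of its columns, matching no sample label, were left out. Within each pair of replicates the counts differed by more than sampling noise (chi-square over its degrees of freedom was 570 in YW-LF and 246 in DMSO).

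Differences were tested with edgeR 4.0.16 (R 4.3.3): filterByExpr (13816 genes), TMM scaling, a quasi-likelihood F-test without covariates over all 4 libraries, and Benjamini-Hochberg adjustment over all genes at 0.05. SE is the log2 fold change divided by the square root of F, and 95% intervals use the test's degrees of freedom, unadjusted. CPM values are TMM-scaled; 1 count equals 0.0199 to 0.0324 CPM. DESeq2 1.42.0 and limma 3.58.1 served as alternatives, beside other scalings, filters, a replicate block and leaving out each library. Tests were first run on simulated data. Members and gene lists were chosen with earlier results of these data known. Beyond the 10 members, the 3 genes of lowest p with a mean of at least 5 CPM were named per list; in the short CCN list 1 gene qualified.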

Additional observations from a re-analysis of the deposited data

How the results depend on the processing

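Calls are given for the alternatives that kept all 4 libraries. In edgeR, 0 of the 10 genes were called higher and 0 lower with any other scaling or filter. The same held in its robust form, without mitochondrially encoded genes, and in limma-voom with or without sample quality weights. DESeq2 called 2 lower, and edgeR with the replicate block called 1 lower (TEAD4). The replicate numbers are tied to no batch, and deviations of same-numbered libraries correlated weakly (r = 0.037). When 1 library was left out, the log2 fold change ranged from -2.20 to -1.68 for TEAD4 and from -2.36 to -1.32 for AJUBA. For AMOTL2 it ranged from -2.05 to -0.12. Such fits rest on 1 pair of libraries for the spread, so the calls made in them are not counted here. Genes with both YW-LF libraries below both DMSO libraries numbered 5 to 7 over the scalings. CCN1 turned to -0.51 in limma-voom, -0.59 with quality weights and -0.66 with the replicate block, and ranged from -2.69 to 1.33 when 1 library was left out; the cause was not tested beyond these fits. Leave-one-out ranges also crossed 0 for TEAD2 (-0.69 to 0.074), CCN2 (-2.61 to 0.67), CCN3 (-0.86 to 0.069), LATS2 (-0.036 to 1.59), NF2 (-1.14 to 1.88) and F3 (-2.66 to 0.017). Calls over all genes numbered 0 higher and 0 lower in the test used, 835 and 616 in DESeq2, and 155 and 120 without a count filter. They numbered 175 and 56 in limma-voom with quality weights, and 186 and 145 with the replicate block. Each of the 10 genes had at least 639 counts in every library; what limited the number of calls was not tested.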
